A study of Mus musculus with 4 samples.

Results

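Tnf and 9 genes of the NF-kB feedback loop were followed in monocytes and macrophages of the mouse colon. The 10 genes were chosen by name out of the 28692 genes of the table: the cytokine Tnf, the inhibitors Nfkbia, Nfkbiz, Tnfaip3, Tnip3 and Irak3, the transcription factor subunits Nfkb1, Rel and Relb, and the early response gene Ier3. All 10 were found by their Ensembl identifiers. Male C57/Bl6N mice had been gavaged on 5 days a week for about 6 months, either with 12 µg of diesel exhaust particles (DEP) in 200 µL of phosphate-buffered saline (PBS) or with PBS alone. Each group held 2 mice, named here DEP 11, DEP 13, PBS 2 and PBS 3, and age was not given in the labels. Colon lamina propria cells were sorted as CD11b+ and positive for CD64, for the monocyte surface protein Ly6C (Ly6c2 in the labels) or for both, and each mouse filled 1 well of a 10x Genomics 3′ v2 chip. Transcripts were counted as unique molecular identifiers (UMIs), and levels are in CPM, the UMIs of a gene divided by all UMIs of the same cells and multiplied by 1000000.

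NF-kB is a family of dimeric transcription factors held in the cytoplasm by inhibitor proteins. Signals from Toll-like, interleukin-1 and Tnf receptors activate a kinase complex that has the inhibitor degraded, and the freed dimers switch on cytokines together with the genes that shut the pathway off again. Nfkbia encodes the inhibitor IκBα, which takes the dimers off DNA. Tnfaip3 encodes A20, an enzyme that edits ubiquitin chains on upstream signalling proteins, and Tnip3 encodes a protein that binds A20. Irak3 encodes IRAK-M, which lacks kinase activity and dampens Toll-like receptor signalling, and Nfkbiz encodes a nuclear IκB protein that both restrains and promotes selected targets. In the gut wall, resident macrophages are known for weak cytokine release in the presence of bacteria, whereas newly arrived monocytes respond strongly.

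The DNA just before the RefSeq starts of the genes (build GRCm38.p6) is shown because NF-kB is known to bind DNA at the kB motif. The 140 bases before the start were searched on both strands for the 10-letter kB consensus. It was present in the windows of 5 of the 7 genes for which a window was at hand, or in 5 of their 9 windows (some genes have several starts), beside 4.24% of all 32851 windows of this length. The windows below are written 5′ to 3′ along the gene, with the matching bases in capitals.
Nfkbia (chr12:55492648-55492787, - strand): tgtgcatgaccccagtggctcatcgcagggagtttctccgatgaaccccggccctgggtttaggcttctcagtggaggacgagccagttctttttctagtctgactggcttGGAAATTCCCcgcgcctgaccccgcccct
Tnfaip3 (chr10:19015411-19015550, - strand): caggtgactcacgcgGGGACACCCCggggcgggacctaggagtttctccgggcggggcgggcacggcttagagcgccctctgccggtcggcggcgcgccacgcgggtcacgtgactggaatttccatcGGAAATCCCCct
Tnip3 (chr6:65590258-65590397, + strand): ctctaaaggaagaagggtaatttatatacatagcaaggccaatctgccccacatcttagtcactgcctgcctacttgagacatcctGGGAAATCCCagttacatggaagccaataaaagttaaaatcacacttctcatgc
Rel (chr11:23770970-23771109, - strand): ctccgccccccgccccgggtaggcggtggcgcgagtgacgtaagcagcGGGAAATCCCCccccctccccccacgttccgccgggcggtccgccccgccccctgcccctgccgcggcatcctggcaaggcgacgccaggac
Ier3 (chr17:35821573-35821712, + strand): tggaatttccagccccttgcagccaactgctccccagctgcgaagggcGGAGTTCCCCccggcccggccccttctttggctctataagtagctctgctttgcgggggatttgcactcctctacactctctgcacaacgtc
Tnf (chr17:35202008-35202147, - strand): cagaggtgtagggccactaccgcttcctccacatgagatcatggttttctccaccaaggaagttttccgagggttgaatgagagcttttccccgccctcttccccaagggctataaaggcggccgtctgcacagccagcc
The match began 29 bases before the Nfkbia start, 54 before that of Tnip3 and 92 before that of Ier3. Tnfaip3 had matches that began 125 and 12 bases before the start, and the capitals before Rel hold 2 matches shifted by a single base. A second Tnfaip3 start, the Irak3 starts and the Tnf start had none within this window, which says only that these letters were not found there. Nfkbiz, Nfkb1 and Relb had no window in the table. The whole genes lie, in GENCODE M21 coordinates on mm10, at chr17:35199381-35202007, minus strand for Tnf, chr12:55489410-55492647, minus strand for Nfkbia, chr10:19000910-19015657, minus strand for Tnfaip3, chr6:65525313-65634040, plus strand for Tnip3 and chr17:35821684-35822923, plus strand for Ier3. Nfkbiz lies at chr16:55811375-55838899, minus strand, Nfkb1 at chr3:135584655-135691547, minus strand, Rel at chr11:23736847-23770970, minus strand, Relb at chr7:19606217-19629438, minus strand and Irak3 at chr10:120141648-120202130, minus strand. UMIs were counted near the 3′ end of transcripts, so the promoter windows were not themselves measured.

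Of 6954 barcodes, 4771 held at least 1000 UMIs (1218 and 675 for DEP 11 and 13, 1296 and 1582 for PBS 2 and 3), with medians of 5328.5 to 7115.5 UMIs per cell. Cells were divided by the genes Ly6c2, which marks fresh monocytes, and C1qa, a complement gene of mature macrophages. There were 330 Ly6c2-high cells (at least 2 Ly6c2 UMIs and more Ly6c2 than C1qa), 3553 C1qa-high cells (at least 10 C1qa UMIs per 10000 and more C1qa than Ly6c2) and 888 other cells. The summed monocyte markers ranged from 7791 to 9484 CPM in the Ly6c2-high cells of the 4 mice and from 876 to 1627 in C1qa-high cells. The 11 macrophage markers, none at 0 and led by Lyz2 in both classes, summed to 47749 to 55043 in Ly6c2-high cells and 37238 to 41522 in C1qa-high cells, so that list was not higher in the C1qa-high class. Cells with marker genes of T, B or plasma cells numbered 181, of which 15 were Ly6c2-high and 99 C1qa-high. The plasma cell list of 5 genes, none of them at 0 and led by Jchain, summed to 2967 to 14563 CPM in Ly6c2-high cells and to 1782 to 5343 in C1qa-high cells, and the members' fold changes in this class are given with and without the lymphocyte and plasma cells. The other pathway genes are given with these cells only. Libraries shared 36 barcode strings, carried by 39 of the 4771 cells.

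Tnf was a sparse transcript in these cells. Across all cells its level was 50.4 and 57.8 (DEP 11 and 13) against 70.4 and 58.4 (PBS 2 and 3), from 1893 UMIs in all. Among the inhibitors, Nfkbia was found at 728 and 556 (DEP 11 and 13) against 876 and 644 (PBS 2 and 3), and Nfkbiz at 255 and 230.4 (DEP 11 and 13) against 284 and 221 (PBS 2 and 3). PBS 2 was the highest of the 4 mice for Tnf, Nfkbia and Nfkbiz. Tnfaip3 had 74.5 and 56.2 (DEP 11 and 13) against 73.7 and 64.5 (PBS 2 and 3), and Tnip3 49.97 and 55.3 (DEP 11 and 13) against 78.6 and 65.3 (PBS 2 and 3). Irak3 was the least counted gene, with 8.19 and 7.11 (DEP 11 and 13) against 10.7 and 8.70 (PBS 2 and 3) from 283 UMIs in all. Both DEP mice lay below both PBS mice for Tnf, Tnip3 and Irak3, as they did for 12.8% of all genes tested, whereas the other inhibitors overlapped between the groups.

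Of the subunits, Nfkb1 encodes p105, the precursor of p50, and had 58.4 and 54.6 (DEP 11 and 13) against 49.3 and 48.2 (PBS 2 and 3) CPM. It was the only 1 of the 10 genes with both DEP mice above both PBS mice, which held for 13.8% of all genes tested. Rel encodes the activating subunit c-Rel and had 99.1 and 76.2 (DEP 11 and 13) against 94.999 and 95.7 (PBS 2 and 3). Relb, the partner of p52 in the alternative pathway, had 27.6 and 22.7 (DEP 11 and 13) against 35.4 and 17.7 (PBS 2 and 3). Ier3, an early gene that protects cells from Tnf-induced death, had 233 and 281 (DEP 11 and 13) against 360.2 and 221 (PBS 2 and 3). For Rel, Relb and Ier3 the groups overlapped, and PBS 2 had the highest and PBS 3 the lowest level of both Relb and Ier3. Because UMIs come from the 3′ end, these levels were not compared between genes.

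The share of cells with a UMI depends on depth, so each cell was thinned to 1000 UMIs. Then Nfkbia was seen in 39.2% of the 4771 cells (exact binomial 95% interval 37.8 to 40.6%), Nfkbiz in 21.1% and Ier3 in 20.5%. Tnf was seen in 5.43% (4.80 to 6.11%), Tnfaip3 in 6.50%, Tnip3 in 5.39%, Nfkb1 in 5.62% and Rel in 9.33%. Relb at 2.26% and Irak3 at 1.09% were seen in the fewest cells. Intervals cover counting error only, and without thinning Tnf was seen in 23.8% of cells and Nfkbia in 78.2%.

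Plasma-marker cells gave a comparison for free RNA in the droplets, as cells of another lineage in the same wells. In these 69 cells, thinned in the same way, Tnf was seen in 1.45% (0.0367 to 7.81%), an interval that includes the share over all cells. Their median depth was 22668 UMIs against 6494 in C1qa-high cells. Tnf levels summed over these cells were 2.77 to 18.1 CPM in the 4 mice, all below the 57.2 to 71.05 of C1qa-high cells, although immunoglobulin transcripts took 44.1 to 51.1% of the UMIs of plasma-marker cells. Nfkbia was at 539 ± 112 (SD, n = 4 mice) in plasma-marker cells and at 671 ± 131 in C1qa-high cells.

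**Figure D1:**
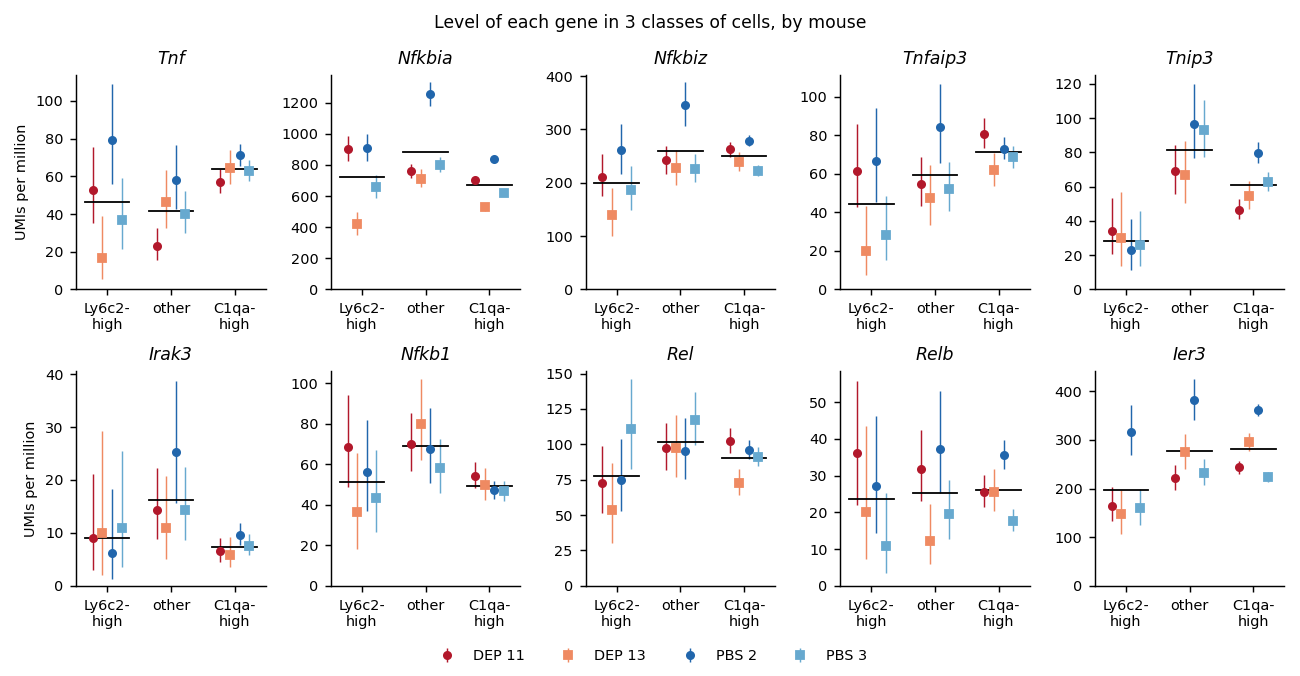
Level of each of the 10 genes, in CPM, in Ly6c2-high, other and C1qa-high cells. Points are the 4 mice with exact 95% Poisson intervals of their counts (counting error only) and black bars the mean of the mice. Tnip3 in the 4 mice lies at 22.9 to 34.4 in Ly6c2-high cells and at 46.6 to 79.96 in C1qa-high cells.

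The first comparison asked how the feedback genes differ between fresh monocytes and mature macrophages of the same mouse. In C1qa-high cells 4 of the 10 genes were higher than in Ly6c2-high cells and none was lower: Tnip3, Ier3, Tnfaip3 and Nfkbiz. Over all 6609 genes tested, 12.3% were called higher and 13.5% lower (edgeR's quasi-likelihood test on UMIs summed per mouse and class, mouse as block, 5% false discovery rate). The median log2 fold change of the 10 genes was 0.24, beside 0.021 over all genes tested. With classes by detection (a UMI of Ly6c2 or C1qa and none of the other), which left 41 Ly6c2-high cells, none of the 4 calls held (edgeR adjusted p of 0.417 for Tnip3, 0.448 for Ier3, 0.198 for Tnfaip3 and 0.685 for Nfkbiz). Those cells held 4 UMIs of Tnip3 and 3 of Tnfaip3, and the median log2 fold change of all genes moved to 0.53.

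Tnip3 showed the widest gap. It stood at 34.4 and 30.02 (DEP 11 and 13) against 22.9 and 26.1 (PBS 2 and 3) in Ly6c2-high cells, from 51 UMIs in all, and at 46.6 and 54.7 (DEP 11 and 13) against 79.96 and 62.9 (PBS 2 and 3) in C1qa-high cells. The ranges of the classes did not overlap, and the log2 fold change was 1.07 (SE 0.21) with an adjusted p of 9.2e-04 in edgeR. Without lymphocyte and plasma cells it was 1.21 with an adjusted p of 4.2e-05. With cells thinned to 1000 UMIs the value was 0.91 and the call was lost (edgeR adjusted p = 0.0681).

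Ier3 was at 165 and 147 (DEP 11 and 13) against 317 and 159 (PBS 2 and 3) in Ly6c2-high cells and at 243 and 295 (DEP 11 and 13) against 361 and 223 (PBS 2 and 3) in C1qa-high cells. Each mouse was higher in its C1qa-high cells, while PBS 2 stood above the others in both classes. The log2 fold change was 0.49 (SE 0.11) with an edgeR adjusted p of 0.00219, and 0.41 with 0.00403 when lymphocyte and plasma cells were left out. Without the mouse as a block the edgeR adjusted p was 0.112.

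Tnfaip3 had 61.5 and 20.01 (DEP 11 and 13) against 66.7 and 28.3 (PBS 2 and 3) in Ly6c2-high cells, where DEP 13 had only 6 UMIs, and 80.97 and 61.8 (DEP 11 and 13) against 73.1 and 68.7 (PBS 2 and 3) in C1qa-high cells. All 4 mice were higher in C1qa-high cells, with a log2 fold change of 0.61 (SE 0.19) and an edgeR adjusted p of 0.0254. Without lymphocyte and plasma cells it was 0.61 (edgeR adjusted p = 0.0152). The call was lost without DEP 11, DEP 13 or PBS 3 (edgeR adjusted p of 0.0650, 0.0750 and 0.128), without the block (0.0834) and in DESeq2 (0.0522).

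Nfkbiz was at 212 and 140.1 (DEP 11 and 13) against 261 and 187 (PBS 2 and 3) in Ly6c2-high cells and at 263 and 239.6 (DEP 11 and 13) against 279 and 222 (PBS 2 and 3) in C1qa-high cells, again higher in all 4 mice. Its log2 fold change of 0.29 (SE 0.10) passed narrowly (edgeR adjusted p = 0.0405). It did not pass once lymphocyte and plasma cells were left out (0.20, edgeR adjusted p = 0.142), nor without DEP 11, DEP 13 or PBS 3 (0.148, 0.155 and 0.0699), nor without the block (0.175). DESeq2 (0.147), its size factors (0.0514), edgeR's likelihood ratio test (0.0526), a limit of 2000 UMIs (0.0507) and leaving out the 6% of cells with the most UMIs (0.0942) ended the call as well.

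The other 6 genes did not pass the test. Tnf stood at 52.5 and 16.7 (DEP 11 and 13) against 79.2 and 37.04 (PBS 2 and 3) in Ly6c2-high cells, where the lowest mouse had 5 UMIs and an exact 95% Poisson interval of 5.42 to 38.9 CPM. In C1qa-high cells it stood at 57.2 and 64.6 (DEP 11 and 13) against 71.05 and 62.8 (PBS 2 and 3), and its log2 fold change was 0.36 (SE 0.21) with an edgeR 95% interval of -0.085 to 0.80. Tnf was thus within a narrow range among C1qa-high cells and spread widely among the few Ly6c2-high cells. It was higher in C1qa-high cells in 3 of 4 mice, and in 2 of 4 without lymphocyte and plasma cells. Nfkbia differed by -0.10 (SE 0.091), between 724 ± 234 and 671 ± 131 CPM (SD, n = 4 mice). Rel differed by 0.19 (SE 0.15), Relb by 0.10 (SE 0.25), Nfkb1 by -0.12 (SE 0.16) and Irak3, with 16 UMIs in Ly6c2-high cells, by -0.27 (SE 0.39). Without lymphocyte and plasma cells the values were 0.26 for Tnf, -0.11 for Nfkbia, 0.14 for Rel, 0.16 for Relb, -0.14 for Nfkb1 and -0.42 for Irak3, and none passed. With the C1qa limit raised to 30 per 10000, an alternative chosen after seeing the data, Nfkbia was called lower in C1qa-high cells (-0.24, edgeR adjusted p = 0.0445), as it was without DEP 13 (-0.22, 0.0462). Leaving out 1 mouse at a time moved Nfkbia from -0.22 to -0.0047. Its direction turned to 0.17 with thinned cells, which did not pass, and it was 0.62 with classes by detection, where the median of all genes stood at 0.53.

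The rest of the pathway was read from a list of 70 further genes, 57 of them tested in this comparison, with 10 called higher and 8 lower in C1qa-high cells. The counts of this list and its groups are given beside 12.3% called higher and 13.5% called lower of all genes tested, and nothing is read from a count near those shares. Their median log2 fold change was -0.0039. Of the 5 receptors tested 3 fell, and the other two, Cd14 and Tlr4, stood at 0.15 (SE 0.10) and 0.11 (SE 0.33) and did not pass. Tlr2, a receptor for bacterial lipoproteins, went from 135 ± 20.998 CPM (SD, n = 4 mice) to 80.2 ± 16.9, a log2 fold change of -0.77 (SE 0.12) with an edgeR adjusted p of 5.8e-05. Tnfrsf1b, one of the Tnf receptors, went from 81.98 ± 17.3 to 47.8 ± 8.91, a log2 fold change of -0.76 (SE 0.15) with an edgeR adjusted p of 8.6e-04.

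Of 14 adaptors and kinases tested, 3 were lower and none higher, beside 13.5% and 12.3% of all genes. Map3k8, the kinase that links Toll-like receptors to ERK signalling, changed by -0.63 (SE 0.12), and Ikbkb, the catalytic subunit that marks IκBα for degradation, by -0.61 (SE 0.12), with edgeR adjusted p of 9.2e-04 and 0.00110. Neither of the other subunits tested, Rela and Nfkb2, passed. Of 16 other inhibitors tested 2 were higher, beside 12.3% of all genes: Socs3, a brake on cytokine receptor signalling, by 0.56 (SE 0.094), and N4bp1, an inhibitor of cytokine responses, by 0.78 (SE 0.26), with edgeR adjusted p of 2.0e-04 and 0.0307.

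Of 21 known NF-kB targets tested, 8 were higher and 2 lower, beside 12.3% and 13.5% of all genes. Bcl2a1b, a survival gene of the Bcl2 family, went from 141 ± 74.7 to 729 ± 86.1 CPM (SD, n = 4 mice) and by 2.35 (SE 0.15) on the log2 scale, and its near-identical copy Bcl2a1d by 2.31 (SE 0.16). Reads can be split between these copies, so their separate values are uncertain. The targets that fell were Clec4e, a receptor for mycobacterial glycolipid, at a log2 fold change of -1.74 (SE 0.16), and Plaur, the urokinase receptor, at -0.94 (SE 0.16). The edgeR adjusted p was 1.7e-09 for Bcl2a1b, 5.2e-09 for Bcl2a1d, 2.6e-07 for Clec4e and 1.8e-04 for Plaur.

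**Figure D2:**
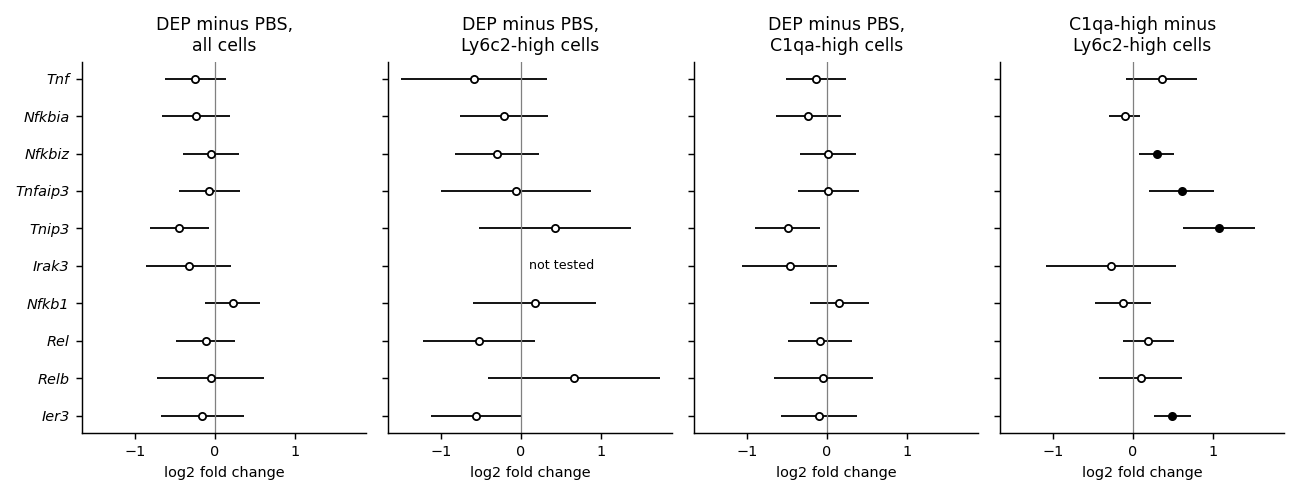
Log2 fold changes of the 10 genes from edgeR with 95% intervals, for DEP minus PBS in all, Ly6c2-high and C1qa-high cells (3 left panels) and for C1qa-high minus Ly6c2-high cells (right). Filled points passed the 5% false discovery rate over all genes tested, which 4 genes did between the classes and none did between DEP and PBS.

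A finer division by C1qa level, given without a test because the pattern was chosen after its values were seen, showed genes of the loop moving in different directions. The share of all genes that move the same way in all 4 mice was not counted, so these directions are not read as particular to the loop. Tnf was at 38.1 ± 13.02 CPM (SD, n = 4 mice) in cells with 5 to 10 C1qa UMIs per 10000, at 59.1 ± 14.3 in those with 20 to 40 and at 74.95 ± 13.7 in those with 60 or more. The ratio of the last to the first of these bins was 2.05 ± 0.408 and lay above 1 in 4 of 4 mice. In cells with under 5 the level was 58.2 ± 21.9, above the next bin, with a wide spread from 88 UMIs. PBS 2 stood at 89.1 there, above its 84.7 at 60 or more, while the other mice were lower there than at 60 or more. Lymphocyte and plasma cells were kept in these bins, and their part in the levels was not tested.

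Nfkbia went the other way, from 819 ± 195 at 5 to 10 to 547 ± 72.2 at 60 or more, a ratio of 0.679 ± 0.0651 that lay below 1 in 4 of 4 mice. Nfkb1 had a ratio of 0.740 ± 0.0505, below 1 in every mouse as well. Tnip3 was at 111 and 115 (DEP 11 and 13) against 86.9 and 88.9 (PBS 2 and 3) at 10 to 20 and at 78.5 and 86.03 (DEP 11 and 13) against 152 and 77.7 (PBS 2 and 3) at 20 to 40, and the mice differed in the bin where it was highest. At 60 or more it was at 23.7 and 35.03 (DEP 11 and 13) against 49.2 and 53.3 (PBS 2 and 3). Its level in the most C1qa-rich cells was thus below that of cells just past the limit of the C1qa-high class in all 4 mice. The ratio of 60 or more to 5 to 10 was 0.605 ± 0.174, below 1 in 4 of 4 mice. Cells of neither class held 81.4 ± 15.5 CPM of Tnip3 (SD, n = 4 mice), beside 61.04 ± 14.3 in C1qa-high and 28.4 ± 4.95 in Ly6c2-high cells.

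Tnfaip3 was 56.3 ± 21.1 at 5 to 10, 85.2 ± 9.90 at 20 to 40 and 64.9 ± 8.15 at 60 or more, and Ier3 and Nfkbiz were also at their highest at 20 to 40 with 336 ± 92.4 and 282 ± 17.3. Rel was 102 ± 14.5 at 10 to 20 and 77.9 ± 16.5 at 60 or more. Relb stayed between 19.95 and 30.6 on average over the bins, and Irak3 went from 14.6 ± 6.92 to 6.42 ± 1.87 on few UMIs. The median depth of the cells differed along this axis, from 4154.5 UMIs in the lowest bin to 7432 in the highest, and the part of depth in these levels was not tested.

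**Figure D3:**
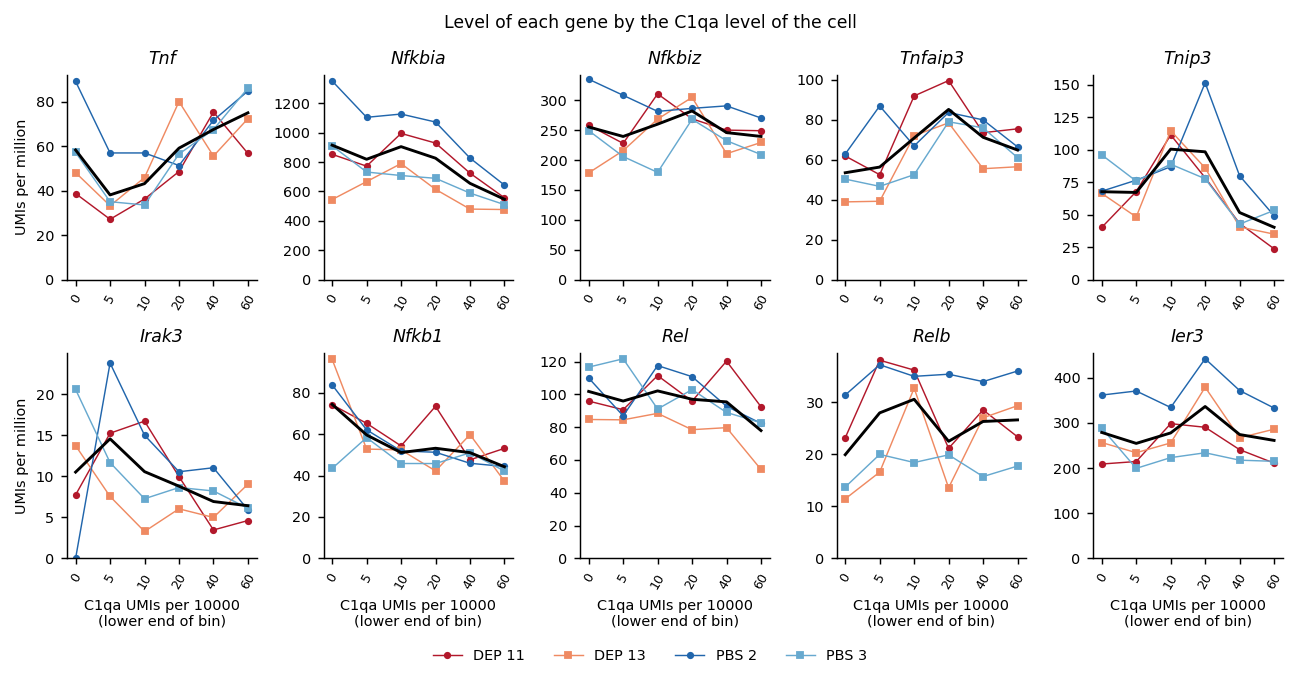
Level of each of the 10 genes, in CPM, against the C1qa level of the cell (lower end of each bin, C1qa UMIs per 10000). Coloured lines are the 4 mice and the black line their mean. Mean Tnf goes from 38.1 at 5 to 10 to 74.95 at 60 or more, while mean Nfkbia goes from 819 to 547.

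The second comparison asked whether DEP changed the loop. In the DEP mice no member changed by the test, in all cells or within either class. Over all cells, 0% of 6609 genes were called in either direction at a 5% false discovery rate in edgeR's quasi-likelihood fit. Before correction 171 genes had a p under 0.05, and the smallest adjusted p was 0.997. DESeq2 called 4 genes and edgeR's likelihood ratio test 8, none of them a member. Both DEP mice lay below both PBS mice for 3 of the 10 members, against 12.8% of all genes, and above them for 1, against 13.8%. Tnf counted among the 3 by a gap between the nearest mice of 57.8 to 58.4 CPM, and without lymphocyte and plasma cells its groups overlapped, which left 2. The members' median log2 fold change (DEP minus PBS) was -0.14, beside -0.0069 over all genes tested.

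Tnip3 had the smallest unadjusted p of the members. The log2 fold change was -0.44 (SE 0.16), with an unadjusted p of 0.0244 that did not survive the correction (edgeR adjusted p = 0.997). The next in size were Irak3 at -0.33 (SE 0.23), Tnf at -0.24 (SE 0.16) and Nfkbia at -0.24 (SE 0.18). For Tnf the edgeR 95% interval ran from -0.63 to 0.14, with 2 mice per group. With 1 mouse left out at a time, Tnf moved from -0.39 to -0.11 and Nfkbia from -0.40 to -0.060. Ier3 stood at -0.16 (SE 0.22), Rel at -0.12 (SE 0.16) and Nfkb1 at 0.22 (SE 0.15). Tnfaip3, Relb and Nfkbiz stood at -0.072 (SE 0.16), -0.056 (SE 0.29) and -0.048 (SE 0.15).

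Within C1qa-high cells 0% of 6829 genes were called by the same edgeR test, 276 had an unadjusted p under 0.05, DESeq2 called 8 and the likelihood ratio test 19. Tnip3 was at 46.6 and 54.7 (DEP 11 and 13) against 79.96 and 62.9 (PBS 2 and 3), the groups apart, with a log2 fold change of -0.49 (SE 0.18) and an edgeR adjusted p of 0.998. Irak3 was at 6.50 and 5.88 (DEP 11 and 13) against 9.60 and 7.62 (PBS 2 and 3), also apart, with -0.47 (SE 0.27). Nfkb1 was at 54.4 and 49.8 (DEP 11 and 13) against 47.2 and 46.7 (PBS 2 and 3), both DEP mice higher, with 0.15 (SE 0.16). These were 2 members with both DEP mice lower, against 14.5% of all genes, and 1 with both higher, against 16.3%. Tnf was at -0.13 (SE 0.17) with overlapping groups, and Nfkbia at -0.23 (SE 0.18). With 1 mouse left out at a time, Tnf moved from -0.26 to -0.0059 and Nfkbia from -0.41 to -0.060.

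Within Ly6c2-high cells 0% of 5746 genes were called by edgeR's quasi-likelihood test, 216 had an unadjusted p under 0.05, DESeq2 called 0 and the likelihood ratio test 5. Irak3 fell under the filter on low counts and was not tested. Rel was at 72.4 and 53.4 (DEP 11 and 13) against 75.1 and 111 (PBS 2 and 3), both DEP mice lower, with -0.52 (SE 0.33), the only member to be so (15.9% of all genes were). Tnip3 was at 34.4 and 30.02 (DEP 11 and 13) against 22.9 and 26.1 (PBS 2 and 3), both DEP mice higher, with 0.42 (SE 0.45), again the only one (13.7% of all genes). Without lymphocyte and plasma cells the groups overlapped for both Rel (-0.54) and Tnip3 (-0.053), and Ier3 was then the 1 member with both DEP mice lower. Ier3 was at -0.56 (SE 0.27) with an unadjusted p of 0.0501 and an edgeR adjusted p of 0.9996, and Tnf at -0.58 (SE 0.44) with a 95% interval of -1.49 to 0.33. Leaving out 1 mouse at a time moved Tnf from -1.70 to -0.030, Ier3 from -0.89 to -0.10 and Relb from 0.15 to 1.35. Rel moved from -0.86 to -0.091, Nfkbiz from -0.60 to -0.088 and Tnip3 from 0.24 to 0.62. Nfkbiz stood at -0.30 (SE 0.25), Nfkbia at -0.21 (SE 0.26), Tnfaip3 at -0.067 (SE 0.45), Nfkb1 at 0.17 (SE 0.37) and Relb at 0.66 (SE 0.51). Without lymphocyte and plasma cells Ier3 was -0.61, Tnf -0.54, Nfkbiz -0.27, Nfkbia -0.32, Tnfaip3 -0.25, Nfkb1 0.0055 and Relb 0.64.

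The DEP effect in C1qa-high cells was then set against that in Ly6c2-high cells in an interaction test. Of 6609 genes, 0.0303% were called higher and 0.0303% lower, 4 in all, none of them a member. The DEP effect on Tnip3 differed by -0.95 (SE 0.41) on the log2 scale (C1qa-high minus Ly6c2-high), with an unadjusted p of 0.0363 and an edgeR adjusted p of 0.954. Without lymphocyte and plasma cells this difference was -0.52. For Ier3 it differed by 0.43 (SE 0.20), with an unadjusted p of 0.0478 and an edgeR adjusted p of 0.954, and it turned to -0.15 with thinned cells. Of the 70 other pathway genes, none was called for DEP among the 57 tested over all cells, in the 57 tested in Ly6c2-high cells or in the 60 tested in C1qa-high cells. Their median log2 fold changes were -0.024, -0.076 and -0.021.

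Immediate early and heat shock genes, which cells can switch on during tissue digestion, had lower summed levels in the DEP mice. The 24 genes of that list, Fos, Jun, Egr1 and Hspa1a among them, summed over all cells to 15898 and 14081 (DEP 11 and 13) against 20125 and 18478 (PBS 2 and 3) CPM, both DEP mice below both PBS mice. Of the 23 tested, 22 had a log2 fold change below 0, 9 had an unadjusted p under 0.05 and none was called. Of all 6609 genes in the same edgeR test, 3400 were below 0 and 171 had an unadjusted p under 0.05. Their part in the members' values in the DEP comparison was not tested. The groups also differed in the share of C1qa-high cells, 68.6 and 68.7% for DEP 11 and 13 against 81.5 and 75.7% for PBS 2 and 3.

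The same list divided the members within each mouse. C1qa-high cells of each mouse were ranked by the summed share of the list and cut into 3 tiers of equal size, with 464 to 1197 cells per mouse in all. Tnf was at 29.3 and 34.7 (DEP 11 and 13) against 49.7 and 42.4 (PBS 2 and 3) in the low tier and at 84.5 and 89.4 (DEP 11 and 13) against 96.6 and 81.4 (PBS 2 and 3) in the high tier, so that no mouse's high tier overlapped any low tier. The ratio of high to low was 2.33 ± 0.477 (SD, n = 4 mice), and Tnf went up from tier to tier in 4 of 4 mice. This was a description chosen after its values were seen, with no test.

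Nfkbia, Nfkbiz, Tnfaip3 and Ier3 also went up from tier to tier in all 4 mice, which makes 5 of the 10 members. Among all 6806 genes tested in these cells and not on the list itself, 2.44% did so. Tnfaip3 had the largest ratio, 3.59 ± 0.339, from 36.6 and 24.6 (DEP 11 and 13) against 34.4 and 25.7 (PBS 2 and 3) to 125 and 92.5 (DEP 11 and 13) against 111 and 102 (PBS 2 and 3). The ratio was 2.78 ± 0.351 for Nfkbiz, 2.26 ± 0.194 for Nfkbia and 2.19 ± 0.294 for Ier3. Rel was higher in the high than in the low tier in 4 of 4 mice (1.97 ± 0.547) but in order in 2. Relb (1.24 ± 0.309) was higher in the high tier, and in order, in 3 of 4 mice. The high tier was above the low tier in 2 of 4 mice for Irak3 (1.20 ± 0.353) and in 1 of 4 for Nfkb1 (0.845 ± 0.243). For Tnip3 (1.28 ± 0.621), which differed most between classes, the high tier was above the low tier in 2 of 4 mice.

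**Figure D4:**
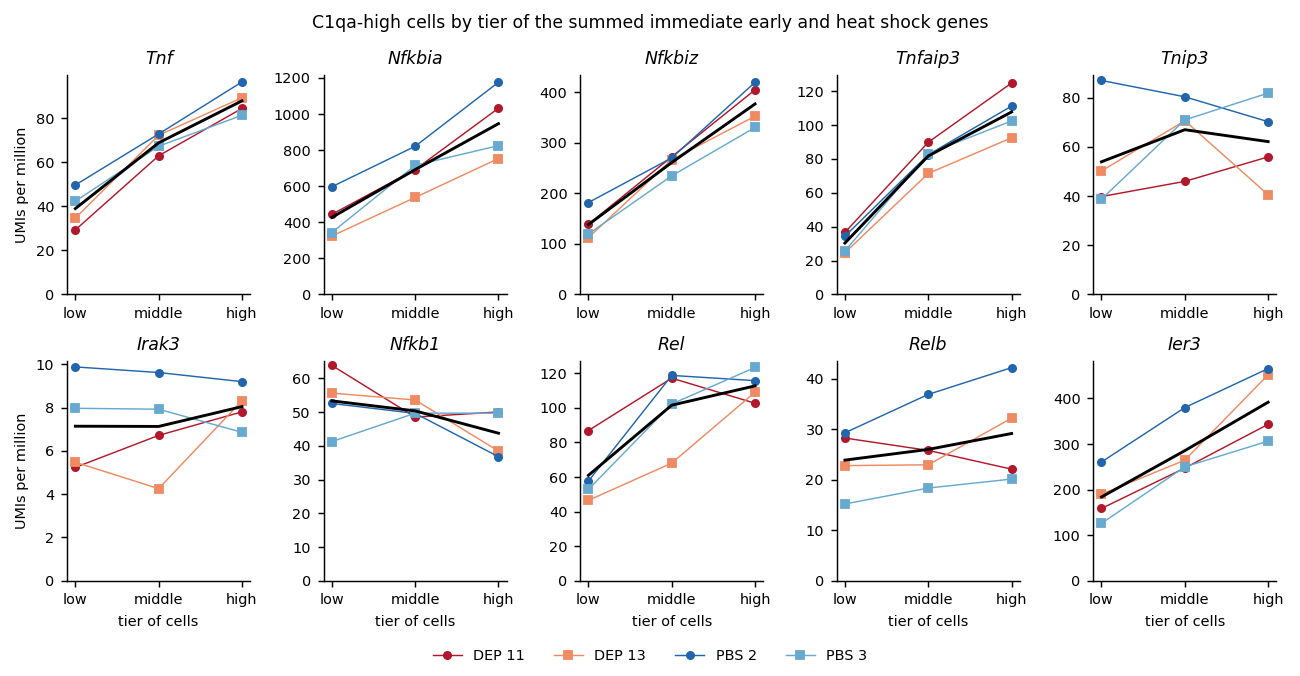
Level of each of the 10 genes, in CPM, in C1qa-high cells divided within each mouse into 3 equal tiers by the summed share of 24 immediate early and heat shock genes. Coloured lines are the 4 mice and the black line their mean. Tnf, Nfkbia, Nfkbiz, Tnfaip3 and Ier3 go up from tier to tier in all 4 mice, and Nfkb1 has a mean of 53.3 in the low and 43.7 in the high tier.

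In the 888 cells of neither class, Tnf, Nfkbia, Nfkbiz and Tnfaip3 were likewise in order in 4 of 4 mice, with ratios of 4.29 ± 1.79, 3.04 ± 0.713, 3.16 ± 1.08 and 4.17 ± 2.21, beside 1.14% of all genes in order there. The lowest ratios, 2.13, 2.04, 1.91 and 2.70, were those of PBS 2. Immunoglobulin took 0.350% of UMIs in its cells of neither class, against 5.09 to 8.79% in the other mice. Lymphocyte and plasma cells were kept in the tiers of all classes, 67 of them among these 888 cells. Plasma-marker cells held 8508 CPM of the list, against 18833 in cells of neither class, and their part in the ratios was not tested. In Ly6c2-high cells, with 17 to 35 cells per tier and mouse, all of Tnf, Nfkbia, Nfkbiz, Tnfaip3, Rel and Ier3 were higher in the high tier in 4 of 4 mice, beside 15.1% of all genes, and Nfkbiz alone was in order in every mouse. Median depth in C1qa-high cells was 5236 to 6753.5 UMIs in the high tier and 5897 to 8059.5 in the low tier.

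The genes whose level was most like that of Tnf across C1qa-high cells, by the mean over 4 mice of Pearson's r on log2(1 + UMIs per 10000), were Cxcl2 (0.189), Ccl3 (0.181), Nfkbia (0.177), Ccl4 (0.173), Nfkbiz (0.158), Cd83 (0.153), Ppp1r15a (0.151), Cxcl3 (0.148), Ccrl2 (0.147) and Egr1 (0.147), out of 6828 genes. All these correlations were weak, and cells of a mouse share a library and differ in depth, so they are given as a description. Tnfaip3 ranked 23rd with 0.121, Ier3 53rd and Tnip3 71st, while Irak3 was at -0.0261. Among the 10 members the highest values were those of Nfkbia with Nfkbiz (0.335), with Tnfaip3 (0.307) and with Tnip3 (0.261).

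Barcodes under 1000 UMIs, 2183 of 6954, carried a different mix. In barcodes of 250 to 500 UMIs Tnf was at 201 ± 81.8 CPM (SD, n = 4 mice), against 63.1 ± 14.2 in those of 4000 to 8000, a ratio of 3.54 ± 2.42 that was above 1 in 4 of 4 mice. Rel had the largest ratio of the members, 5.29 ± 2.16, from 93.5 ± 10.4 to 495 ± 222. It was 2.90 ± 0.705 for Tnfaip3, 2.90 ± 0.623 for Tnip3, 2.55 ± 0.556 for Nfkb1, 2.87 ± 1.09 for Relb and 2.46 ± 0.586 for Nfkbiz. Nfkbia at 1.58 ± 0.510 was also above 1 in every mouse, and Ier3 at 1.09 ± 0.277 was above 1 in 2 of 4. Irak3 had a ratio of 1.84 ± 0.599, above 1 in 4 of 4 mice, but rested on 8 UMIs at 250 to 500. It stood at 10.6 ± 2.49 CPM at 500 to 1000, against 11.3 ± 3.24 at 4000 to 8000. These ratios are for the bin of 250 to 500 UMIs alone, and no share over all genes was counted beside them. Some levels were also raised in the shallowest cells kept. At 1000 to 2000 UMIs Rel stood at 224 ± 72.9 CPM, Tnfaip3 at 133 ± 16.5 and Nfkb1 at 127 ± 40.2. At 4000 to 8000 they stood at 93.5, 63.7 and 54.3. Irak3, at 11.5 ± 9.15 with 1000 to 2000 UMIs, was not raised. At 100 to 250 UMIs Tnip3 stood at 69.8 ± 65.9 CPM on 7 UMIs, and Relb, on 4 UMIs, was listed at 0 in both PBS mice.

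These shallow barcodes also differed in other ways. Their median mitochondrial share was 22.7%, against 1.71% at 4000 to 8000 UMIs, and Malat1, a long RNA that stays in the nucleus, had a ratio of 4.94 ± 0.698. The part of nuclear or damaged cells in the higher levels was not tested.

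**Figure D5:**
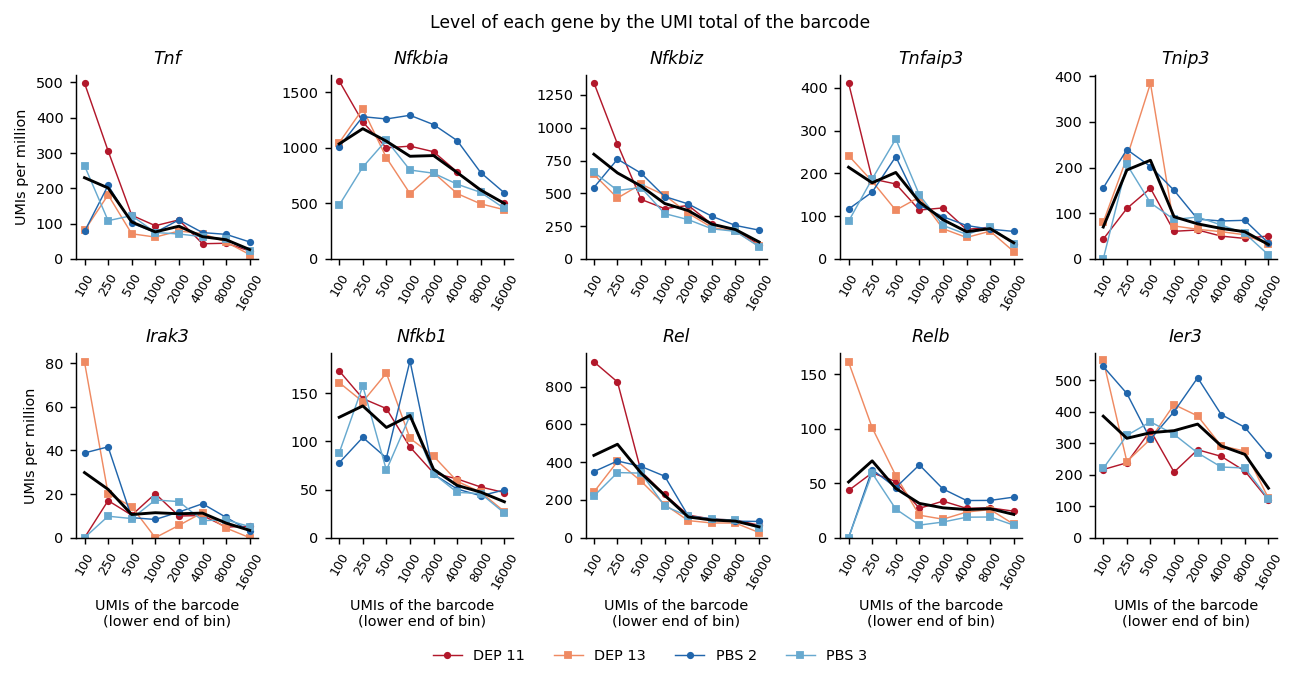
Level of each of the 10 genes, in CPM, against the UMI total of the barcode (lower end of each bin), for all 6954 barcodes. Coloured lines are the 4 mice and the black line their mean. Mean Rel is 495 at 250 to 500 UMIs and 93.5 at 4000 to 8000, and mean Ier3 is 316 and 292.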

How the data were processed

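Single-cell 3′ libraries of 2 DEP and 2 PBS mice were analysed. The deposited table holds UMI counts per gene and barcode, not normalized, which the authors made with Cell Ranger on mm10, and the submitters' processing notes also name STAR 2.6.1a and R 3.5.1. Groups and mouse numbers came from the labels, and each mouse was 1 replicate. All mice were sorted in a single batch.

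Barcodes with at least 1000 UMIs were kept (4357153 to 10063287 UMIs per mouse). Filters stated by the study leave 4623 barcodes, several times as many as its methods describe, so the cells here are a different set from the study's. Doublets were not removed, and an alternative left out the 6% of cells with the most UMIs. UMIs were summed per mouse or per mouse and class, kept at over 1 CPM in at least 2 sums and a UMI in at least 5% of cells, and tested with edgeR 4.0.16 (TMM, quasi-likelihood, Benjamini-Hochberg over all genes, R 4.3.3), with mouse as block between classes. Fits were run on simulated counts with a single dispersion for all genes, no mouse effect and changes only in well-counted genes. That simulation cannot show how the fits behave for members with few UMIs. Alternatives were DESeq2 1.42.0, its size factors, the likelihood ratio test, no gene filter, other cell filters and class limits, thinning, no block and leaving out each mouse. Symbols were found for 28339 of 28692 Ensembl identifiers, and promoter sequence is from RefSeq (GRCm38.p6, 7 of 10 genes matched).

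The members and gene lists were chosen with earlier results of these data known. Named beyond the members were the 10 genes most correlated with Tnf and, per pathway role and direction, up to 2 called genes with the smallest p. Sums used Python 3.11.15 with numpy 2.4.6 and scipy 1.17.1.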

Additional observations from a re-analysis of the deposited data

How the results depend on the processing

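No paired analysis was possible because the DEP and PBS mice share no replicate number, and the block below is the mouse, which gave cells to both classes. Without that block 1272 genes were called between the classes instead of 1709, and of the members Tnip3 alone kept its call.

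None of the members was called between DEP and PBS under any alternative run. The DEP log2 fold change of Tnip3 in C1qa-high cells ranged from -0.65 to -0.34. Genes called between DEP and PBS, 0 by edgeR's quasi-likelihood test with 171, 216 and 276 at an unadjusted p under 0.05, numbered in all cells 4 with DESeq2, 8 with the likelihood ratio test, 119 with no gene filter, 1 without the 6% of cells with the most UMIs and 7 to 35 with 1 mouse left out. In Ly6c2-high cells they numbered 5 with the likelihood ratio test, 34 with no filter, 5 without immunoglobulin genes and 0 to 29 with a mouse left out. In C1qa-high cells they numbered 8 with DESeq2, 19 with the likelihood ratio test, 139 with no filter, 1 without the 6% of cells and 1 at 30 C1qa per 10000, and 12 to 21 with a mouse left out. Leaving out a mouse leaves 1 in its group, which is then assumed to vary like the other group.

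Between the classes 505 genes were called with thinned cells, 146 with classes by detection and 1263 to 1522 with a mouse left out. The interaction called 2 with DESeq2, 27 with no filter, 7 at 2000 UMIs, 8 without lymphocyte and plasma cells, 7 without immunoglobulin genes, 0 with thinned cells, by detection and at 30 C1qa per 10000, and 0 to 24 with a mouse left out. Settings without immunoglobulin genes and at 30 C1qa per 10000 were chosen after seeing the data. The median of all genes between classes moved to 0.41 with no filter and to 0.53 by detection.

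Some differences changed sign. In all cells Tnfaip3 was 0.024 without the 6% of cells and 0.29 thinned. In Ly6c2-high cells Nfkbiz was 0.16 by detection, and Tnip3 was -0.053 without lymphocyte and plasma cells and -0.057 without the 6%. In C1qa-high cells Nfkbiz was -0.022 with no filter, -0.0037 at 2000 UMIs, -0.0029 without lymphocyte and plasma cells, -0.087 by detection, -0.022 by the larger count and -0.087 at 30 C1qa. Tnfaip3 there was -0.013 with no filter, -0.15 by detection, -0.048 by the larger count and -0.023 at 30 C1qa, and Relb was 0.051 without the 6%. The Ier3 interaction was -0.15 thinned. Between classes Nfkbia was 0.17 thinned and, by detection, 0.62, with Irak3 at 6.97 and Nfkb1 at 1.63. Detection left only 41 Ly6c2-high cells with 0 UMIs of Irak3 and 3 of Nfkb1, so these fitted values are no bound. The cause of the other changes was not tested.

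With a mouse left out, values that crossed 0 ranged in all cells from -0.17 to 0.081 for Nfkbiz, -0.25 to 0.074 for Tnfaip3, -0.28 to 0.018 for Rel, -0.43 to 0.46 for Relb and -0.42 to 0.17 for Ier3. In Ly6c2-high cells they ranged from -0.82 to 0.20 for Nfkbia, -1.15 to 0.58 for Tnfaip3 and -0.37 to 0.45 for Nfkb1. In C1qa-high cells they ranged from -0.094 to 0.12 for Nfkbiz, -0.15 to 0.16 for Tnfaip3, -0.32 to 0.093 for Rel, -0.42 to 0.47 for Relb and -0.36 to 0.22 for Ier3, and between classes from -0.22 to 0.0027 for Nfkb1 and -0.066 to 0.44 for Relb.

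Unthinned, a UMI was seen of Tnf in 23.8% of cells, Nfkbia in 78.2%, Nfkbiz in 62.6%, Tnfaip3 in 27.4%, Tnip3 in 18.1%, Irak3 in 5.45%, Nfkb1 in 26.9%, Rel in 37.7%, Relb in 14.4% and Ier3 in 58.1%. Of the 10 genes most like Tnf in C1qa-high cells, 2 were among the 10 in Ly6c2-high cells. Few UMIs stand behind values in the Ly6c2-high class, with 89 Tnf and 51 Tnip3 UMIs in its 330 cells.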
